A study of Homo sapiens with 8 samples.

Results

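The cholesterol and fatty acid genes described here are 37 genes chosen by name, of 22653 entries listed in any library: 19 enzymes of sterol synthesis, 5 genes of the SREBP control machinery, 3 sterol transport genes, 3 genes of efflux or the LXR response, and 7 enzymes of fatty acid synthesis and desaturation. Their names were matched to Entrez numbers, and all 37 had an entry. Of these, 33 had enough counts to be tested among 17503 entries, and the other 4 (HSD17B7, ABCA1, ABCG1 and ELOVL6) did not. The cells were U937, an established human monocytic line, with a knockout of SLC19A1 in every group. Its product brings reduced folates and cyclic dinucleotides into cells. One line carried a doxycycline-inducible Flag-tagged SLC7A2 and the other a doxycycline-inducible Flag-tagged SLC7A1, both transporters of cationic amino acids. The 4 groups, of 2 libraries each, were the SLC7A2 line with dox (doxycycline at 1 µg/mL for 24 h), the SLC7A2 line without it, the SLC7A1 line with dox and the SLC7A1 line without it. No group without a construct received dox, so dox itself and the transporter that it induces cannot be told apart. The sources used here do not give whether a line is 1 clone or a pool, or whether libraries of a group came from separate cultures. The p-values therefore measure only the spread between these libraries, which may be technical.

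Cells sense sterols at the membrane of the endoplasmic reticulum. When sterols are scarce, SCAP carries the SREBP precursors to the Golgi, where proteases free the part that enters the nucleus. SREBP2, from SREBF2, acts mainly on genes of sterol synthesis, and SREBP1, from SREBF1, mainly on genes of fatty acid synthesis. When sterols are plentiful, INSIG1 and INSIG2 hold SCAP back, and oxysterols switch on LXR, which raises the efflux pumps ABCA1 and ABCG1. INSIG1 is itself a strong SREBP target and is widely used to read out the activity of the pathway.

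Promoter windows, the 250 bases before each annotated start, were at hand for 32 of the 37 genes (43 windows) from RefSeq on GRCh38.p14. Those of 5 of the genes with values below are printed 5′ to 3′ on the strand of the gene. HMGCS1 makes the precursor of mevalonate, MSMO1 removes methyl groups from sterol intermediates, INSIG1 and SREBF2 are control genes, and SCD desaturates fatty acids. INSIG1 (chr7:155297878-155310235, plus strand) has its window at chr7:155297628-155297877. HMGCS1 (chr5:43287470-43313412, minus strand) has the window shown at chr5:43313413-43313662. MSMO1 (chr4:165327669-165343164, plus strand) has it at chr4:165327419-165327668. SREBF2 (chr22:41833105-41907305, plus strand) has it at chr22:41832855-41833104. SCD (chr10:100347233-100364826, plus strand) has it at chr10:100346983-100347232. Capitals mark matches to CCAAT, the box bound by NF-Y, a usual partner of SREBP, to the sterol regulatory element core TCACNCCAC and to that core without its last letter, on either strand.
INSIG1: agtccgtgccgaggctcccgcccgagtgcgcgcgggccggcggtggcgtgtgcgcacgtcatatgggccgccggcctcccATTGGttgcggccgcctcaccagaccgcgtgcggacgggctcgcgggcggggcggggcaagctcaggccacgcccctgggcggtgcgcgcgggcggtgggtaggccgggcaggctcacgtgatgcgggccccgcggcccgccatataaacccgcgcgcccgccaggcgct
HMGCS1: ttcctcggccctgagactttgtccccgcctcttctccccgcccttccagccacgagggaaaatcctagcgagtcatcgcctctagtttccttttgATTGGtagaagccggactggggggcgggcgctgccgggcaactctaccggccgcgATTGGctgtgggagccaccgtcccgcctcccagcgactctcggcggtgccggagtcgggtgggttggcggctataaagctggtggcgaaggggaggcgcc
MSMO1: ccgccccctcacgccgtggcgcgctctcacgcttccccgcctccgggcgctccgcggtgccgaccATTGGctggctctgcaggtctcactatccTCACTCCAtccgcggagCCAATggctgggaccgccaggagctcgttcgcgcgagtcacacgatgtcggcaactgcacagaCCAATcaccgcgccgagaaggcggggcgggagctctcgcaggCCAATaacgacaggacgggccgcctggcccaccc
SREBF2: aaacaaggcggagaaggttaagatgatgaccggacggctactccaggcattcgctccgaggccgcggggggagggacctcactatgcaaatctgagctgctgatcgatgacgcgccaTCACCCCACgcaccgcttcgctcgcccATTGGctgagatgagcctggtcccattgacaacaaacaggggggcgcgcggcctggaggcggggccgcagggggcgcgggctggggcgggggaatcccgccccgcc
SCD: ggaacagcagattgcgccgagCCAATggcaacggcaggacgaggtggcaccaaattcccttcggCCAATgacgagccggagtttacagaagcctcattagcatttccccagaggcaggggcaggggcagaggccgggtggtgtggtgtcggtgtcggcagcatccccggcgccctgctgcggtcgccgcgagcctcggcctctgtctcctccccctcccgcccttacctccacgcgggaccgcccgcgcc

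The MSMO1 window held 4 CCAAT matches, and those shown for HMGCS1 and SCD held 2 each. The INSIG1 and SREBF2 windows held 1 each. The window of CYP51A1, which is not printed, held no match to CCAAT or to the core with or without its last letter. Over the 32 genes with a window, 21 (65.6%) had CCAAT in at least 1 window, against 37% of all 27305 genes. Among the 16 sterol synthesis genes with a window it was 13 (81.2%). The 9-letter core TCACNCCAC was found in 1 of the 32 genes, SREBF2, where it starts 133 bases before the start. Over all genes it was found in 1.09%. The core without its last letter, TCACNCCA, was searched after the first result was seen. It was present in 3 of the 32 genes (MSMO1, MVK and SREBF2), which is 9.38%, against 3.92% of all genes. Every match to the longer core also matches the shorter one. These matches are letters in a window and not tested sites.

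The 8 libraries held between 17309132 and 18441833 expected counts, so 3 counts, taken as the floor, were 0.163 to 0.173 CPM (counts scaled to the library total) before TMM normalisation. All other CPM here are TMM-normalised. The floor covers counting error only, while the SE and SD values below include the spread between libraries. The tagged SLC7A2 entry had 265 and 4670 CPM in SLC7A2 cells given dox, against 0.570 and 9.46 CPM without it. The tagged SLC7A1 entry had 840 and 378 CPM in SLC7A1 cells given dox, against 0.290 and 0 CPM without it. SLC19A1 mRNA had 124 to 160 CPM in the 8 libraries, which does not check the knockout, since an edited gene can still be transcribed. All 12 monocytic markers exceeded 1 CPM in at least 1 library, the 4 erythroid markers were at 0, and T cell markers summed to at most 0.228 CPM, with CD3E and CD3G at 0. B cell markers summed to 18.2 to 26.1 CPM, mainly CD79A, with MS4A1 at 0, and epithelial markers to 2.08 to 6.31 CPM. The 9 fibroblast markers summed to 72.1 CPM in the SLC7A2 line without dox, number 2, against 9.12 to 15.1 CPM in the other libraries. Their part in the values of that library was not tested. The 12 monocytic markers summed to 3133 and 2129 CPM in SLC7A2 cells given dox, against 3218 and 2511 CPM without it, and to 3009 and 2975 CPM in SLC7A1 cells given dox, against 3806 and 2999 CPM without it. The sum was lower with dox in all 4 pairs, as were its markers ELANE, AZU1 and LYZ. ITGB2 and ITGAM were higher with dox in all 4 pairs, and the other markers differed in direction by pair. The sum was lowest in the SLC7A2 libraries numbered 2. Since these libraries also held the 4670 CPM of tag and the fibroblast sum of 72.1 CPM, the main SLC7A2-line values are also given without them.

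Measured per length, sterol synthesis was carried by unequal amounts of mRNA from step to step. Levels between genes are compared here in deposited TPM. FDPS, which makes farnesyl diphosphate, was the highest of the 37 with a mean of 723 TPM (581.57 to 914 in the 8 libraries). FDFT1, which commits farnesyl diphosphate to squalene, followed with 554 TPM (374 to 729). EBP, a sterol isomerase, NPC2, a lysosomal cholesterol carrier, and the desaturase FADS2 came next with means of 299, 283 and 267 TPM, and their ranges overlapped. HMGCS1 had a mean of 11.2 TPM (3.35 to 24.3), MSMO1 20.5 TPM (5.54 to 34.1) and the desaturase SC5D 2.78 TPM (1.47 to 4.98), the lowest of the tested genes. INSIG1 had a mean of 60.9 TPM and INSIG2 6.01 TPM, and their ranges did not overlap.

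**Figure D1:**
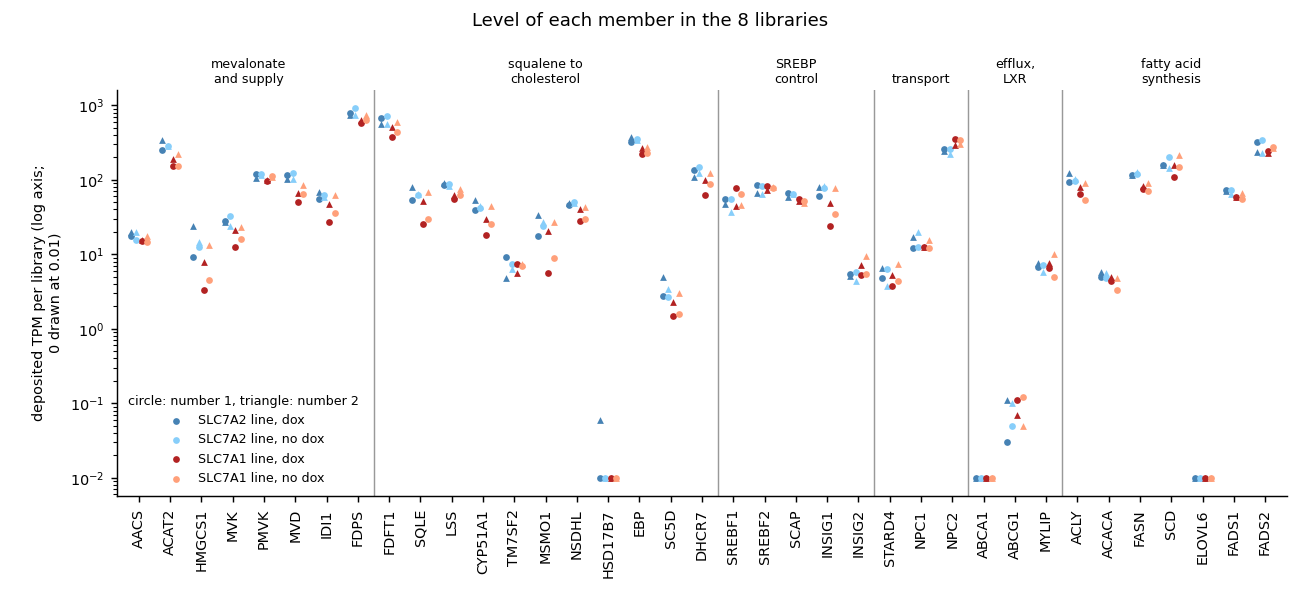
Deposited TPM of each of the 37 genes (log axis, 0 drawn at 0.01) in the 8 libraries, coloured by group, with circles for number 1 and triangles for number 2. FDPS and FDFT1 sit at the top, while ABCA1, ABCG1, ELOVL6 and HSD17B7 sit far below all others.

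The efflux pumps ABCA1 and ABCG1 were close to silent. ABCA1, the pump that loads cholesterol onto apolipoprotein A-I, had 1 count in the SLC7A2 dox library numbered 2, in the SLC7A2 no-dox library numbered 2 and in the SLC7A1 dox library numbered 1, and 0 counts in the other 5. ABCG1, a second LXR-driven pump, had, after rounding of the expected counts, 1 and 5 counts in SLC7A2 dox libraries, 2 and 5 in SLC7A2 no-dox libraries, 5 and 3 in SLC7A1 dox libraries and 5 and 2 in SLC7A1 no-dox libraries. ELOVL6, a fatty acid elongase, had at most 1 count in any library, and HSD17B7, a sterol ketoreductase, had 1 count in 1 library. Changes of these 4 genes were not detectable at this depth, and HSD17B7 may share reads with near-identical copies. MYLIP, an LXR-driven ubiquitin ligase of lipoprotein receptors, was the measurable gene of this class. It had 15.7 and 15.2 CPM in SLC7A2 cells given dox, against 17.1 and 13.0 CPM without it, and 15.7 and 19.4 CPM in SLC7A1 cells given dox, against 13.0 and 24.1 CPM without it. Dox and no-dox values overlapped in both lines.

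Sterol genes differed widely between libraries of the same group in the SLC7A1 line. There 16 of 18 tested sterol synthesis genes were higher in the library numbered 2 than in that numbered 1, both with and without dox, and 1 (TM7SF2) was lower. Over all tested entries 33.3% were higher in number 2 in both groups and 33.9% lower, and among the 8528 entries with a symbol and a mean log2 CPM of at least 3, where most members lie, 39.1% and 33.5%. MSMO1 had 34.3 CPM in number 2 and 8.97 CPM in number 1 with dox, and 43.5 and 15.004 CPM without dox. The difference with dox was 3.79-fold when computed with a prior count of 2. SREBF1 went the opposite way, at 146 CPM in number 2 and 252 CPM in number 1 with dox, and at 143 and 226 CPM without it. In the SLC7A2 line 4 sterol synthesis genes were higher in number 2 in both groups (35.4% of all entries, 40.8% of those at this level) and 9 were lower (35.1% and 36.5%). Deviations of same-numbered libraries were shared, and each dox value is given below by same-numbered pair, as the log2 difference of TMM-normalised CPM.

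**Figure D2:**
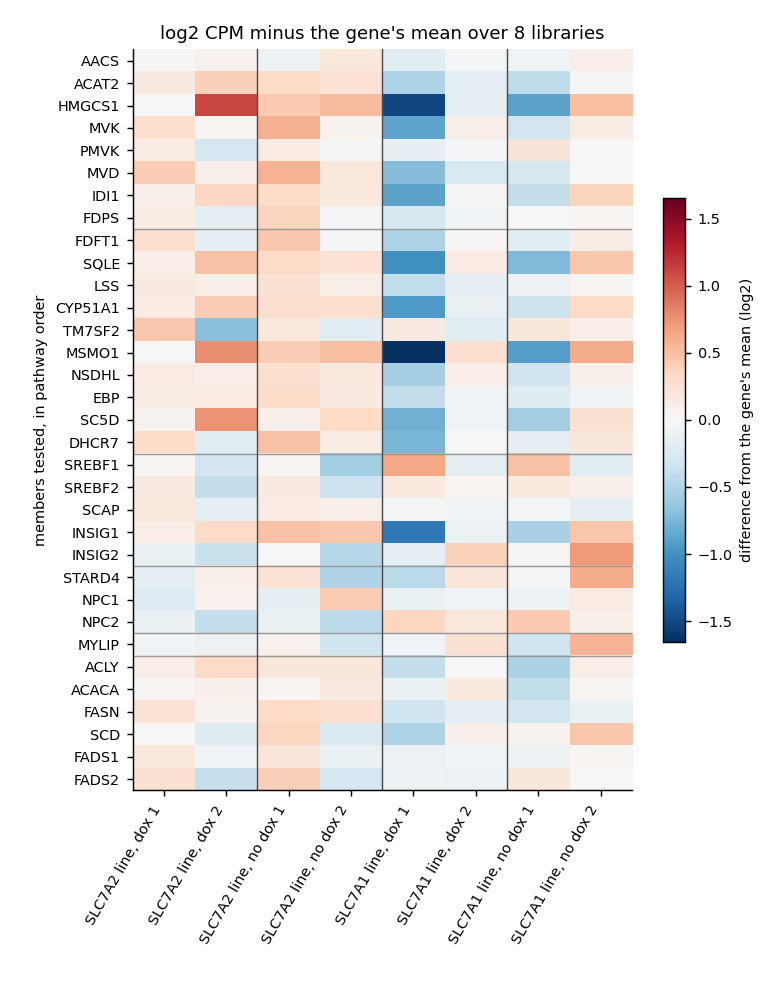
Log2 CPM of the 33 tested genes in pathway order, as the difference from the mean of the gene over the 8 libraries (blue lower, red higher), with columns by group and number. The SLC7A1 dox library numbered 1 is the bluest column through the sterol synthesis genes, while SREBF1 is red there.

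After 24 h of dox 14 of the 18 tested sterol synthesis mRNAs had lower fitted values than without it in the SLC7A2 line, and all 18 did in the SLC7A1 line. Of all 17503 entries, 8496 and 8853 did, in that order. The amounts did not pass edgeR for any single gene. The monocytic marker sum was also lower with dox in all 4 pairs, although ITGB2 and ITGAM of that list were higher in all 4. The part of the sum in these values was not tested. In bulk samples fewer cells that make an mRNA and less of it per cell cannot be told apart. In the SLC7A2 line 9 of the 18 tested sterol synthesis genes were lower with dox in both same-numbered pairs and 0 were higher in both, against 25% and 25.6% of all tested entries and 28.5% and 23.8% of those with a symbol and a mean log2 CPM of at least 3. The median log2 fold change of the 18 genes was -0.04, and that of all entries was 0.01. In the SLC7A1 line 16 of the 18 genes were lower with dox in both pairs and 0 were higher in both, against 24.4% and 26% of all tested entries and 21% and 27.7% of those at this level. Their median was -0.24, and that of all entries was -0.00. NSDHL and EBP were the exceptions, lower in pair 1 and at 0.01 and 0.03 in pair 2. In TPM NSDHL and EBP were lower in both pairs of this line, while AACS, ACAT2 and TM7SF2 were higher in pair 1. Leaving out 1 library at a time in the SLC7A1 line gave a median of -0.02 without the dox library numbered 1, -0.54 without the dox library numbered 2, -0.39 without the no-dox library numbered 1 and -0.02 without the no-dox library numbered 2. In the SLC7A2 line the median was 0.03 without the no-dox library numbered 1, -0.14 without the no-dox library numbered 2, and -0.09 and -0.07 without the dox libraries numbered 1 and 2. Without both SLC7A1 libraries numbered 1, the SLC7A1-line median was -0.19. The members were chosen with such counts known, so the counts describe these libraries and carry no p.

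**Figure D3:**
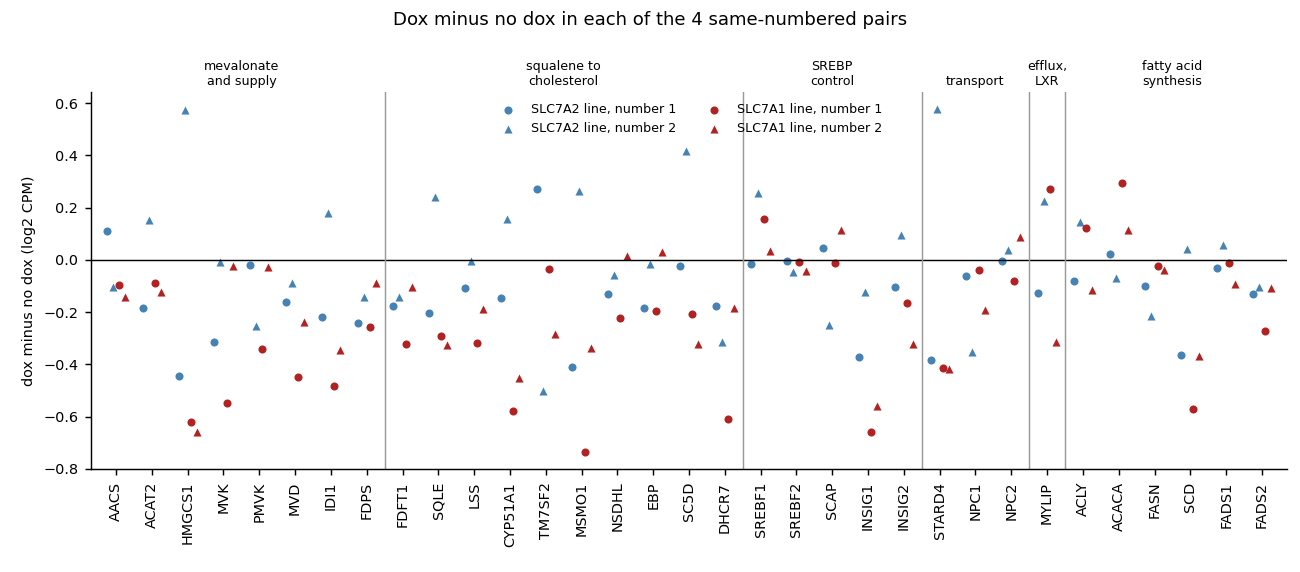
Log2 CPM with dox minus that without dox for each tested gene in the 4 same-numbered pairs (blue SLC7A2 line, red SLC7A1 line, circles number 1, triangles number 2), with 0 drawn as a line. Red marks lie below 0 for 16 of 18 sterol synthesis genes in both pairs. Blue triangles lie above 0 for 7 of the 18, among them HMGCS1, SC5D and MSMO1.

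In edgeR's quasi-likelihood test with Benjamini-Hochberg adjustment 0 members passed for dox in the SLC7A2 line, for dox in the SLC7A1 line, for the difference between these effects or for dox over both lines. In each of these 4 comparisons the test called 0% of the 17503 entries, and an unadjusted p under 0.05 was found for 224, 222, 222 and 261 entries, in that order, and for 0 members. With the same-numbered pairs as a replicate block, edgeR called 1, 2, 0 and 3 entries (0.00571%, 0.0114%, 0% and 0.0171%), and 0 members. An unadjusted p under 0.05 was then found for 620, 745, 519 and 1020 of the 17503 entries, and for 1, 8, 2 and 8 of the 33 tested members. DESeq2 without the block called 10, 9, 20 and 1 entries (0.0571%, 0.0514%, 0.114% and 0.00571%), and 0 members. DESeq2 with the replicate block called 29, 45, 21 and 106 entries (0.166%, 0.257%, 0.12% and 0.606%), among them 0, 3, 0 and 3 members. A member that passed only there rests on that tool and on the pairing.

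Of the 8 genes from acetyl-CoA supply to farnesyl diphosphate, 4 were lower with dox in both pairs of the SLC7A2 line and 8 in both pairs of the SLC7A1 line. HMGCS1 had 36.8 and 79.3 CPM in SLC7A2 cells given dox, against 50.1 and 53.2 CPM without it, and the no-dox values lay inside the range of the dox values. It had 13.0 and 33.0 CPM in SLC7A1 cells given dox, against 19.99 and 52.2 CPM without it, with pair differences of -0.62 and -0.66, although the groups overlapped. The fitted values were 0.17 ± 0.58 (SE, adjusted p = 1.00, edgeR) in the SLC7A2 line and -0.65 ± 0.59 (SE, adjusted p = 1.00, edgeR) in the SLC7A1 line, with 2 libraries in each group. The SLC7A1-line value was 0.20 without the no-dox library numbered 2, -1.48 without the dox library numbered 2 and -0.13 without the dox library numbered 1. IDI1, which isomerises isopentenyl diphosphate, had 81.4 and 97.0 CPM in SLC7A2 cells given dox, against 94.7 and 85.6 CPM without it. It had 41.5 and 77.7 CPM in SLC7A1 cells given dox, against 58.0 and 98.7 CPM without it. FDPS had 654 and 536 CPM in SLC7A2 cells given dox, against 773 and 590 CPM without it. In the SLC7A1 line FDPS had 498 and 576 CPM with dox, against 595 and 612 CPM without it, and these groups did not overlap. FDPS and the kinase PMVK were 2 of 4 members whose SLC7A1-line groups were lower with dox without overlap (with LSS and FADS2), where 11% of all entries and 6.94% of those at this level were. In TPM the groups of FDPS and LSS overlapped, and those of PMVK and FADS2 did not. AACS, which makes acetoacetyl-CoA in the cytosol, had 42.0 and 43.3 CPM in SLC7A2 cells given dox, against 38.9 and 46.6 CPM without it, and 36.8 and 40.4 CPM in SLC7A1 cells given dox, against 39.3 and 44.6 CPM without it. Its groups overlapped in both lines. MVK, PMVK and MVD, the enzymes that phosphorylate and decarboxylate mevalonate, and FDPS were lower in all 4 pairs. In TPM FDPS alone of these was.

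From squalene onward 5 of the 10 tested genes were lower with dox in both pairs of the SLC7A2 line and 8 of 10 in both pairs of the SLC7A1 line. CYP51A1, which removes a methyl group from lanosterol, had 94.4 and 115 CPM in SLC7A2 cells given dox, against 104 and 103 CPM without it. It had 45.0 and 79.0 CPM in SLC7A1 cells given dox, against 67.3 and 108 CPM without it. The fitted value was 0.01 ± 0.31 in the SLC7A2 line and -0.50 ± 0.31 in the SLC7A1 line (SE, adjusted p = 1.00 each, edgeR). In DESeq2 with the replicate block CYP51A1 passed in the SLC7A1 line, at -0.51 with an adjusted p of 0.00853. In edgeR its value there was -0.15 and -0.96 without the SLC7A1 dox libraries numbered 1 and 2, and -0.80 and -0.12 without the SLC7A1 no-dox libraries numbered 1 and 2. MSMO1 had 28.2 and 48.2 CPM in SLC7A2 cells given dox, against 37.5 and 40.1 CPM without it. DHCR7, the last reductase of the route to cholesterol, had 266 and 189 CPM in SLC7A2 cells given dox, against 301 and 235 CPM without it. It had 128 and 215 CPM in SLC7A1 cells given dox, against 195 and 245 CPM without it. The fitted value was -0.23 ± 0.29 in the SLC7A2 line and -0.36 ± 0.29 in the SLC7A1 line (SE, adjusted p = 1.00 each, edgeR). The SLC7A2-line value was -0.50 and -0.0062 without the dox libraries numbered 1 and 2, and -0.045 and -0.40 without the no-dox libraries numbered 1 and 2. DHCR7 was lower in all 4 pairs, and over both lines DESeq2 with the replicate block gave -0.32 with an adjusted p of 0.0217, against -0.30 ± 0.19 (SE, adjusted p = 1.00) in edgeR, which became -0.15 without the SLC7A1 dox library numbered 1 and -0.45 without that numbered 2. SQLE, which oxidises squalene, had 122 and 158 CPM in SLC7A2 cells given dox, against 141 and 134 CPM without it, and 55.8 and 125 CPM in SLC7A1 cells given dox, against 68.4 and 157 CPM without it. TM7SF2, a sterol reductase, lay between 4.61 and 10.1 CPM in the 8 libraries. LSS, which closes the sterol rings, had 211 and 256 CPM in SLC7A1 cells given dox, against 263 and 292 CPM without it. These groups did not overlap in CPM but did in TPM. SC5D had 15.02 and 24.2 CPM in SLC7A2 cells given dox, against 15.3 and 18.1 CPM without it, and its fitted value there was 0.23 ± 0.37 (SE, adjusted p = 1.00, edgeR), or -0.02 without both SLC7A2 libraries numbered 2. NSDHL and EBP were lower with dox without overlap in the SLC7A2 line, as were INSIG1 and FASN, where 9.7% of all entries and 9.55% of those at this level were. In TPM the groups of NSDHL, EBP and INSIG1 overlapped, and those of FASN did not.

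Among the control genes INSIG1 was lower with dox in all 4 pairs, SREBF2 differed little and SREBF1 was lower in 1 pair. INSIG1 had 136 and 158 CPM in SLC7A2 cells given dox, against 176 and 173 CPM without it, and these groups did not overlap. In deposited TPM INSIG1 had 61.45 and 81.21 with dox there, against 77.38 and 81.78 without it, with overlap. It had 55.3 and 118 CPM in SLC7A1 cells given dox, against 87.3 and 173 CPM without it, lower in both pairs (-0.66 and -0.56). The groups of the SLC7A1 line overlapped, with number 1 far below number 2. Group means were 147 ± 15.5 and 174 ± 2.65 CPM in the SLC7A2 line with and without dox, and 86.5 ± 44.1 and 130 ± 60.7 CPM in the SLC7A1 line with and without dox (SD, n = 2 each). The fitted values were -0.24 ± 0.40 in the SLC7A2 line, -0.59 ± 0.40 in the SLC7A1 line and -0.42 ± 0.27 over both (SE, adjusted p = 1.00 each, edgeR). Without the SLC7A1 no-dox library numbered 2 the fitted value in that line was -0.01, and without the dox library numbered 1 it was -0.15. It was -1.24 without the SLC7A1 dox library numbered 2 and -1.002 without the no-dox library numbered 1. For the SLC7A2 line it was -0.14 without the dox library numbered 1, and -0.37 without both libraries numbered 2. Over both lines it was -0.21 without the SLC7A1 dox library numbered 1 and -0.15 without the SLC7A1 no-dox library numbered 2. In DESeq2 with the replicate block INSIG1 did not pass in the SLC7A2 line (-0.25, adjusted p = 1.00). It passed in the SLC7A1 line (-0.60, adjusted p 1.32e-05) and over both lines (-0.43, adjusted p 0.00155). SREBF1 had 165 and 130 CPM in SLC7A2 cells given dox, against 167 and 109 CPM without it, and 252 and 146 CPM in SLC7A1 cells given dox, against 226 and 143 CPM without it. Its fitted value was 0.10 ± 0.34 in the SLC7A2 line, 0.11 ± 0.34 in the SLC7A1 line and 0.10 ± 0.23 over both (SE, adjusted p = 1.00 each, edgeR). SREBF2 was within 0.05 of 0 in all 4 pairs, for example 356 and 328 CPM in SLC7A1 cells given dox, against 359 and 338 CPM without it. Its fitted value was -0.02 ± 0.22 in each line and -0.02 ± 0.15 over both (SE, adjusted p = 1.00 each, edgeR). The sign of both SREBF genes turned when single libraries were left out. INSIG2 had 14.4 and 20.7 CPM in SLC7A1 cells given dox, against 16.2 and 25.9 CPM without it, and SCAP lay between 159 and 201 CPM in the 8 libraries.

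**Figure D4:**
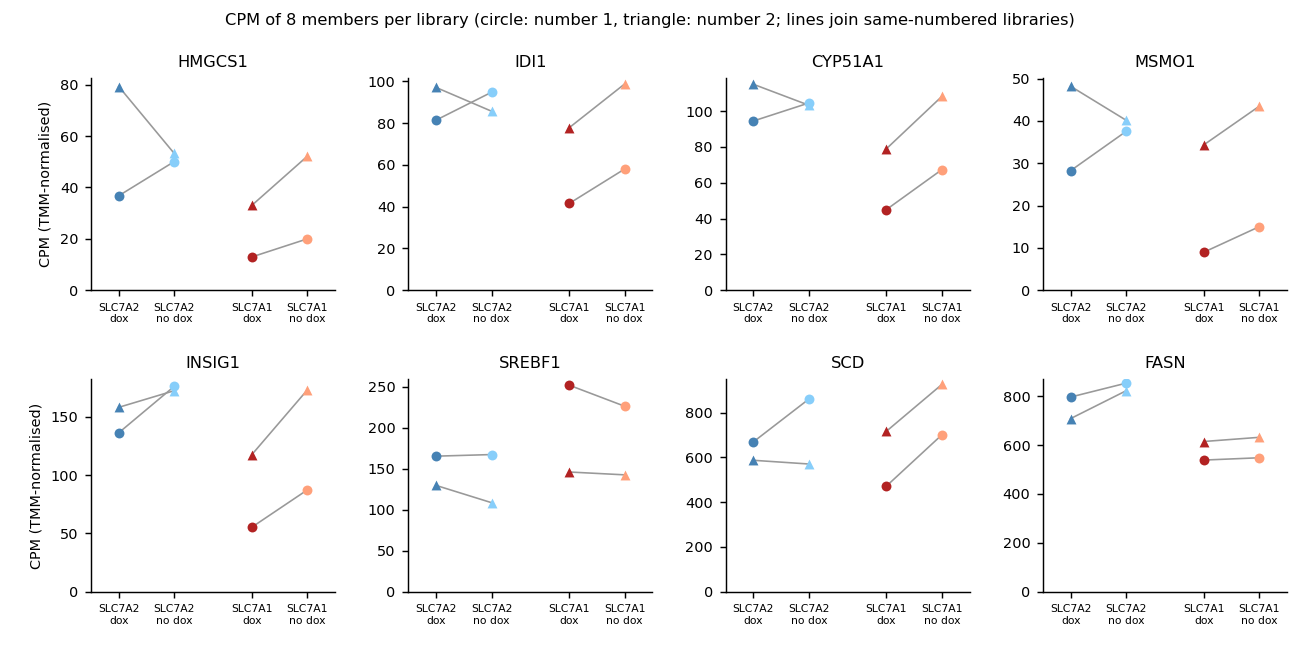
CPM of HMGCS1, IDI1, CYP51A1, MSMO1, INSIG1, SREBF1, SCD and FASN in each library (axes from 0), dox left of no dox within a line, circles number 1, triangles number 2, lines joining same-numbered libraries. In the SLC7A1 line both joined pairs of HMGCS1, IDI1, CYP51A1, MSMO1, INSIG1 and SCD run lower with dox, and the circles of the synthesis genes lie below the triangles.

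The transport genes gave no common direction. STARD4, which moves cholesterol between membranes, had 14.8 and 17.5 CPM in SLC7A2 cells given dox, against 19.4 and 11.7 CPM without it, and 12.1 and 18.9 CPM in SLC7A1 cells given dox, against 16.1 and 25.2 CPM without it. NPC1, the lysosomal exporter of cholesterol, was lower with dox in all 4 pairs, with differences of -0.06 and -0.35 in the SLC7A2 line and of -0.04 and -0.19 in the SLC7A1 line. In TPM NPC1 was higher with dox in the SLC7A1 libraries numbered 1, at 12.73 against 12.04. NPC2 differed with dox by at most 0.09 in any pair.

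Fatty acid synthesis genes had medians near 0 with dox in both lines. Their median log2 fold change was -0.07 over 6 tested genes in the SLC7A2 line and -0.04 in the SLC7A1 line. The sterol medians were -0.04 and -0.24, in that order. Fitted values were lower with dox for 4 and 5 of the 6 fatty acid genes, and for 8496 and 8853 of all 17503 entries. Without both SLC7A2 libraries numbered 2 the SLC7A2-line median was -0.09, and without the SLC7A2 no-dox library numbered 1 it was 0.09. FASN and FADS2 were lower with dox in both pairs of the SLC7A2 line (2 of 6), and FASN, SCD, FADS1 and FADS2 in both pairs of the SLC7A1 line (4 of 6), where ACACA was higher in both. Of all tested entries 25% were lower in both SLC7A2 pairs and 24.4% in both SLC7A1 pairs, where 26% were higher. Among those with a symbol and a mean log2 CPM of at least 3 the shares were 28.5%, 21% and 27.7%. In deposited TPM FADS2 was higher with dox in SLC7A2 libraries numbered 2, and FASN and FADS1 in SLC7A1 libraries numbered 1. ACACA was also higher in both SLC7A2 pairs. SCD, the stearoyl-CoA desaturase, had 669 and 587 CPM in SLC7A2 cells given dox, against 861 and 570 CPM without it. It had 472 and 717 CPM in SLC7A1 cells given dox, against 701 and 926 CPM without it. Its fitted value was -0.45 ± 0.27 in the SLC7A1 line and -0.32 ± 0.18 over both (SE, adjusted p = 1.00 each, edgeR), and it passed in DESeq2 with the replicate block in the SLC7A1 line (-0.47, adjusted p 0.0236) but not over both lines (adjusted p 0.0845). Over both lines the edgeR value was -0.19 without the SLC7A1 dox library numbered 1 and -0.21 without the SLC7A1 no-dox library numbered 2. ACACA, which makes malonyl-CoA, had 35.2 and 42.4 CPM in SLC7A1 cells given dox, against 28.7 and 39.2 CPM without it. FASN, the fatty acid synthase, had 797 and 709 CPM in SLC7A2 cells given dox, against 854 and 823 CPM without it. In the SLC7A1 line it had 539 and 615 CPM with dox, against 548 and 632 CPM without it. ACLY, which supplies cytosolic acetyl-CoA, was lower in 1 pair and higher in the other in both lines. FADS1, a desaturase of polyunsaturated fatty acids, lay between 208 and 259 CPM in the 8 libraries.

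Per library the mean log2 CPM of the 18 sterol genes and of the 6 fatty acid genes gave 1 value for each class. With dox minus without it, the sterol mean differed by -0.15 and 0.02 in the pairs of the SLC7A2 line and by -0.36 and -0.21 in those of the SLC7A1 line. The fatty acid mean differed by -0.11 and -0.02 in the SLC7A2 line and by -0.08 and -0.10 in the SLC7A1 line. The sterol mean minus the fatty acid mean therefore moved by -0.04 and 0.04 in the SLC7A2 line and by -0.28 and -0.11 in the SLC7A1 line. With 2 pairs in a line these values have no test.

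Over both lines, 12 of the 33 tested members were lower with dox in all 4 pairs (MVK, PMVK, MVD, FDPS, FDFT1, LSS, DHCR7, INSIG1, SREBF2, NPC1, FASN and FADS2), where 7.07% of all entries and 7.38% of those at this level were. In all 4 pairs 0 were higher, where 7.83% and 8.3% were. SREBF2 was within 0.05 of 0 in each. In deposited TPM FDPS, FDFT1, DHCR7 and INSIG1 stayed lower in all 4 pairs. The others of the 12 were higher with dox in at least 1 pair, and ACACA was higher in all 4. FDPS passed in DESeq2 with the replicate block at -0.18 and an adjusted p of 0.0497, next to the threshold of 0.05.

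Whether the dox effect differed between the lines was tested as the effect in the SLC7A2 line minus that in the SLC7A1 line. The median of the 18 sterol genes was 0.13, and 10 of the 18 had the more positive effect in the SLC7A2 line at both numbers, where 21.1% of all entries and 15.9% of those at this level did. HMGCS1 had a difference of 0.82 ± 0.82, SC5D 0.52 ± 0.53 and CYP51A1 0.51 ± 0.43 (SE, adjusted p = 1.00 each, edgeR). The errors are about as large as the differences, so a different response of the lines was not shown for these genes, and the lowest adjusted p of any member was also 1.00. The sterol median of the difference was -0.04 without the SLC7A1 dox library numbered 1 and -0.05 without the SLC7A1 no-dox library numbered 2, where HMGCS1 had -0.03. When single libraries were left out, the difference of SC5D ranged from 0.04 (without the SLC7A1 no-dox library numbered 2) to 0.92 (without the SLC7A1 dox library numbered 2). That of CYP51A1 ranged from 0.13 to 0.97 without the same libraries. Without both SLC7A2 libraries numbered 2, the difference was 0.21 for HMGCS1, 0.26 for SC5D and 0.36 for CYP51A1, and the sterol median of dox in the SLC7A2 line was -0.17 in place of -0.04.

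The lines were also compared with each other over both dox states. Here 16 of the 18 sterol synthesis genes had a higher fitted level in the SLC7A2 line than in the SLC7A1 line. Of all 17503 entries 8657 did, as did 4750 of the 8528 with a symbol and a mean log2 CPM of at least 3. The median log2 fold change of the 18 genes was 0.37, against -0.00 over all entries. In edgeR 0 members passed (0% of entries), and 8 had an unadjusted p under 0.05, as did 2242 of 17503 entries. The lowest adjusted p of a member was 0.315. With the replicate number as a block edgeR called 256 entries (1.46%), among them 2 members, and DESeq2 called 349 entries (1.99%), among them 5. In all, 6 members were higher in every SLC7A2-line library than in any SLC7A1-line library (MVD, LSS, NSDHL, EBP, ACAT2 and FASN), where 4.35% of all entries and 6.54% of those at this level were. NPC2 alone among members was lower in each, where 5.11% and 5.36% were.

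NPC2 had 126, 103, 127 and 101 CPM in the SLC7A2 line, against 174, 154, 184 and 145 CPM in the SLC7A1 line. Its log2 fold change was -0.53 ± 0.12 (SE, adjusted p 0.315, edgeR), and it passed with the block (adjusted p 0.0208) and in DESeq2 (adjusted p 0.0101). ACAT2, which joins acetyl-CoA units at the head of the route, had 265, 315, 301 and 283 CPM in the SLC7A2 line, against 168, 215, 179 and 234 CPM in the SLC7A1 line. Its log2 fold change was 0.55 ± 0.12 (SE, adjusted p 0.315, edgeR), with 0.0417 under the block and 0.00536 in DESeq2. FASN had 0.45 ± 0.09 (SE), which missed the threshold with the block (adjusted p 0.0502) and passed in DESeq2 (0.000304). EBP (0.35 ± 0.10, SE) and MVD (0.62 ± 0.15, SE) had an adjusted p of 0.315 each in edgeR and passed in DESeq2 alone, at adjusted p values of 0.0310 and 0.0125. MVD had 151, 120, 169 and 127 CPM in the SLC7A2 line, against 69.0, 95.5, 94.1 and 113 CPM in the SLC7A1 line. HMGCS1 had the highest log2 fold change of the members, 0.92 ± 0.42 (SE, adjusted p 0.402, edgeR), and MSMO1 had 0.61 ± 0.44 (SE, adjusted p 0.562, edgeR). SREBF1 was lower in the SLC7A2 line at both dox states and numbers, at -0.43 ± 0.23 (SE, adjusted p 0.454, edgeR).

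**Figure D5:**
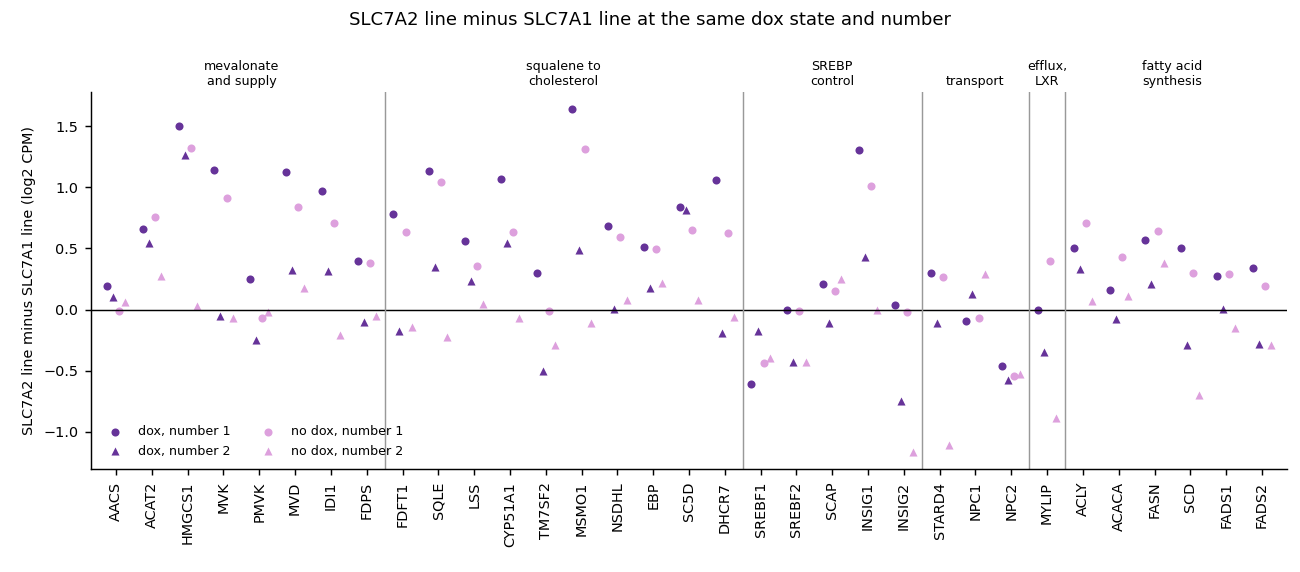
Log2 CPM in the SLC7A2 line minus that in the SLC7A1 line for each tested gene at the same dox state and number (dark dox, light no dox, circles number 1, triangles number 2). Circles lie above triangles of the same shade for most sterol genes, and NPC2 and SREBF1 lie below 0 at all 4 marks.

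The difference between the lines rested largely on the libraries numbered 1. At number 1 the median over the 18 sterol genes was 0.81 with dox and 0.63 without it. There 18 and 15 of them were higher in the SLC7A2 line, against 8563 and 8733 of 17503 entries. At number 2 the median was 0.20 with dox and -0.04 without it, and 12 and 8 of the 18 were higher, against 8900 and 8483 entries. Without both SLC7A1 libraries numbered 1 the median of the fitted values was 0.10, HMGCS1 had 0.38 and MSMO1 -0.01, while MVD had 0.45. MSMO1 had 0.31 without the SLC7A1 dox library numbered 1 alone and 1.03 without the SLC7A1 no-dox library numbered 2, and HMGCS1 had 0.58 without the SLC7A2 dox library numbered 2. Without both SLC7A2 libraries numbered 2 the median was 0.38.

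Across the 8 libraries the genes whose log2 CPM was most like that of INSIG1, among 8527 genes with a symbol and a mean log2 CPM of at least 3, were CYP51A1 (Pearson r = 0.98), IDI1 (0.98), HSP90B1 (0.98), MARCHF3 (0.97) and RBBP5 (0.97). These are descriptions over 8 libraries that share lines and replicate numbers. Of the other members MSMO1, SQLE, NSDHL and HMGCS1 had r of 0.96, 0.95, 0.95 and 0.94. Lower values among the sterol genes were 0.77 for FDFT1, 0.75 for AACS, 0.60 for FDPS and 0.05 for PMVK. Of the fatty acid genes ACLY had 0.88, FASN 0.79, ACACA 0.61, SCD 0.59, FADS1 0.45 and FADS2 -0.03. SREBF1 had r = -0.85 and NPC2 -0.76.

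Other genes of lipid metabolism had list medians near 0 with dox in the SLC7A1 line. Of 9 genes of SREBP processing and sterol sensing, 0 passed in edgeR. In the SLC7A2 line 2 (RNF139 and ERLIN2) were higher in both pairs and 1 (ERLIN1) was lower, with a list median of 0.12. In the SLC7A1 line 2 (ERLIN1 and PAQR3) were lower in both pairs, with a list median of 0.02. ERLIN1, part of a complex that targets sterol-sensitive proteins for degradation, had 255 and 206 CPM in SLC7A2 cells given dox, against 255 and 238 CPM without it. It had 230 and 283 CPM in SLC7A1 cells given dox, against 271 and 312 CPM without it. MBTPS1, a protease that cleaves SREBP, lay between 95.8 and 114 CPM in the 8 libraries. The 14 tested genes of other lipid synthesis steps had a median of 0.10 with dox in the SLC7A2 line and 0.04 in the SLC7A1 line, and 0 passed in edgeR. In the SLC7A2 line 6 of the 14 (GPAM, ACSL1, ACSL3, IDH1, HACD3 and ACACB) were higher in both pairs and 1 (TECR) was lower, against 25.6% and 25% of all entries. In the SLC7A1 line 3 (ELOVL5, GPAM and ACACB) were higher in both pairs and 3 (ACSS2, TMEM97 and HSD17B12) were lower, against 26% and 24.4%. The same shares of all entries stand beside the counts of the other lists here. The 9 genes of the isoprenoid branch, which use farnesyl diphosphate for other products, had medians of 0.01 in the SLC7A2 line, with 2 lower and 2 higher in both pairs, and of -0.05 in the SLC7A1 line, with 3 lower and 3 higher. The 11 tested genes of sterol storage and of the LXR and RXR receptors had medians of -0.04 in the SLC7A2 line, with 2 lower and 2 higher in both pairs, and of -0.00 in the SLC7A1 line, with 4 lower and 2 higher. PLTP, a phospholipid transfer protein, had 112, 54.0, 101 and 51.6 CPM in the SLC7A2 line, against 130, 102, 146 and 103 CPM in the SLC7A1 line.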

How the data were processed

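RNA-seq was measured in 8 libraries, with groups taken from the labels. The authors deposited expected counts, FPKM and TPM per entry, not pooled, 1 table per library. Per the submitters' processing notes the tools were RSEM 1.3.1, HISAT, DESeq2 1.4.5 and Bowtie2 2.3.4.3, listed beside hg38 without their steps. The sources used here do not give whether counting used strand. FPKM as deposited were not used in tests. TPM as deposited were used for levels between genes and set beside some counts by pair and by overlap. An entry absent from a table was taken as 0.

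Expected counts were rounded to whole numbers and entries kept by filterByExpr (minimum count 10, minimum total 15). They were TMM-normalised and tested over all 4 groups with edgeR 4.0.16 (quasi-likelihood, R 4.3.3), Benjamini-Hochberg adjusted over 17503 entries, threshold 0.05, for 5 comparisons. CPM in the text are TMM-normalised, and pair differences are log2 with a prior count of 2. Alternatives were DESeq2 1.42.0, no filter, other normalisations, left-out libraries and the replicate number as a block. Another prior count and log2(TPM + 1) were used for the class means only, which were not tested. The numbers come from the labels, and deviations of same-numbered libraries of a line correlated at 0.674 (SLC7A2) and 0.573 (SLC7A1) over 10304 entries, so they were taken as pairs. The code was tested on simulated data.

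The rule for full statistics took members under an adjusted p of 0.05, the 3 with the largest absolute log2 fold change in each comparison (mean log2 CPM of at least 3), and INSIG1, SREBF1, SREBF2 and ABCA1, the last not tested. Other members with values were named after these were seen. The wider lists are given by counts, medians and values of at most 2 members, and 1 count of genes higher with dox is not reported here. Members and lists were chosen with earlier results of these data known. Promoter windows are from RefSeq.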

Additional observations from a re-analysis of the deposited data

How the results depend on the processing

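All comparisons are limited by 2 libraries per group, not stated to be separate cultures, and the 4 members under the count filter could not be tested at this depth. A left-out library leaves 1 in its group, which is then assumed to vary like the others. The settings without both libraries of 1 number, and the shorter motif, were chosen after seeing the data. Counts by pair and by overlap used TMM-normalised CPM. In deposited TPM some members changed direction or overlap, as given above, and shares of all entries were not counted in TPM. Where values below moved, the cause was not tested.

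edgeR called 0 entries in each comparison. DESeq2 called 10 for dox in the SLC7A2 line, 9 in the SLC7A1 line, 20 for the difference, 1 over both lines and 349 between lines. With the replicate block, which uses the same-numbered pairs, edgeR called 1, 2, 0, 3 and 256, and DESeq2 called 29, 45, 21 and 106 in the first 4. Without the count filter edgeR called 2 for dox in the SLC7A1 line, 2 over both lines and 3 between lines. Members called were 3 for dox in the SLC7A1 line and 3 over both lines in DESeq2 with the replicate block, and between lines 5 in DESeq2 and 2 in edgeR with the block. The block changed no other call of a member.

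Without both SLC7A2 libraries numbered 2, edgeR called 1 entry for dox over both lines and 1 between lines. The dox effect in the SLC7A2 line was then -0.0218 for SC5D and -0.0139 for SREBF1, and the sterol median -0.17. Without both SLC7A1 libraries numbered 1, MSMO1 between lines was -0.00676.

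Leaving out 1 library at a time, calls ranged from 0 to 1 for dox in the SLC7A2 line and from 0 to 1 between lines. For dox in the SLC7A2 line the ranges were -0.15 to 0.54 for SC5D, -0.18 to 0.44 for SREBF1, -0.32 to 0.25 for SREBF2, -0.14 to 0.03 for the sterol median, -0.17 to 0.09 for the fatty acid median and -0.0902 to 0.0940 for the sterol mean minus the fatty acid mean. For dox in the SLC7A1 line they were -1.48 to 0.20 for HMGCS1, -0.34 to 0.48 for SREBF1, -0.0845 to 0.0328 for SREBF2, -0.54 to -0.0191 for the sterol median, -0.16 to 0.04 for the fatty acid median and -0.39 to -0.0020 for the sterol mean minus the fatty acid mean. Over both lines SREBF1 ranged from -0.0737 to 0.25, SREBF2 from -0.14 to 0.0836 and the sterol median from -0.26 to -0.0299. For the difference HMGCS1 ranged from -0.0333 to 1.65, the sterol median from -0.0476 to 0.40 and the fatty acid median from -0.12 to 0.14.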
